A study of Mus musculus with 9 samples.

Results

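Transcripts of the hypoxia-inducible factor (HIF) pathway were examined in mouse liver. The genes were the factor subunits Hif1a, Epas1 and Arnt, the oxygen sensors Egln1 and Egln3, the ubiquitin ligase subunit Vhl, and the targets Vegfa, Bnip3, Adm and Ndrg1. They were taken as a named list, and a non-control probe was assigned to a gene when its RefSeq accession, taken without the version, mapped to that symbol. This gave all 10 genes, of 20972 that could be named, with 17 of the 55681 non-control probes. Signal was well above background for all 17 on all 9 arrays, so all entered the 26277 probes that were tested.

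Expression was measured in total liver RNA from 20-week-old males on 1-colour Agilent arrays, with 1 array per mouse and 3 mice in each of 3 groups. STAM mice, C57BL/6J mice given low-dose streptozotocin as newborns and then a high-fat diet, were either left without treatment (STAM-NON) or given insulin (STAM-INS, glargine under the skin). Normal mice were lean mice on ordinary CE-2 chow. Both STAM groups therefore carry the toxin and the diet, which cannot be told apart from the disease in any comparison with Normal, and whether a piece of STAM liver held tumour is not given in the sources used here.

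The share of spots well above background ranged from 46.2% to 65.0% over the 9 arrays, and all 10 hepatocyte markers that were listed as a check of the tissue, among them Alb and Ttr, were detected on every array. All STAM arrays lay on 1 slide with 1 scan and all Normal arrays on another, so that slide and group cannot be told apart in the comparisons with Normal. STAM-INS and STAM-NON were compared within 1 slide. Both comparisons with Normal share the same 3 Normal arrays, and the 2 comparisons with STAM-NON share the STAM-NON arrays. Precision was limited by 3 arrays per group.

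HIF is a pair of an oxygen-regulated alpha subunit, encoded by Hif1a or Epas1, and the constant partner encoded by Arnt. With oxygen, prolyl hydroxylases of the Egln family mark the alpha subunit, which is then bound by the VHL protein and degraded, so that the factor is set largely by protein stability and transcript levels of Hif1a do not show the level of the protein. In low oxygen the pair binds hypoxia-response elements, whose core reads ACGTG or GCGTG, and raises genes of glucose use, vessel growth and mitochondrial turnover, among them Egln3 itself. In the liver, oxygen falls from the portal to the central vein, and the pathway is best known there for its part in glycolysis, lipid storage and the supply of vessels to tumours.

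To show where such cores lie, the 250 bases before the transcription start were read from RefSeq promoter windows on the build GRCm38.p6, which held 8 of the 10 genes in 9 windows, Vegfa having 2 start sites. Epas1 and Ndrg1 were not among them. The letters ACGTG and GCGTG were searched on both strands, a CACGTG being counted on each strand, and 7 of the 9 windows held at least 1 match. Over all 32851 windows of that length, 38.6% held either core, 16.6% ACGTG and 28.2% GCGTG. The windows of the targets whose values are described most closely below, and that of Vegfa upstream of its outer start site, in which no core was found, are given here with the matches in capitals.
Bnip3: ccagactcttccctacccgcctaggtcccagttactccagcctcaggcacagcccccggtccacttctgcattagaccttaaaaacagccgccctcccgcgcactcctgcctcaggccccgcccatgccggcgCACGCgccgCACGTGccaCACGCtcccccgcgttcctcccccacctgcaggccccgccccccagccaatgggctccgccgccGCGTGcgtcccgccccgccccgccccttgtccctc
Adm: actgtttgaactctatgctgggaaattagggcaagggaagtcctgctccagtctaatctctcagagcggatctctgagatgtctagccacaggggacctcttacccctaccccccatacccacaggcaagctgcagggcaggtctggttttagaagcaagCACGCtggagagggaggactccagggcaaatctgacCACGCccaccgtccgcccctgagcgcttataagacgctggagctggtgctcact
Egln3: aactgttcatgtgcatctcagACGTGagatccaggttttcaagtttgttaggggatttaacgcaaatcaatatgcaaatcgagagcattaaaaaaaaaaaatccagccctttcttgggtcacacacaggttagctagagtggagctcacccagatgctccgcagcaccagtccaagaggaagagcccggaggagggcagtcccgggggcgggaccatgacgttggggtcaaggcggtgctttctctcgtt
Vegfa: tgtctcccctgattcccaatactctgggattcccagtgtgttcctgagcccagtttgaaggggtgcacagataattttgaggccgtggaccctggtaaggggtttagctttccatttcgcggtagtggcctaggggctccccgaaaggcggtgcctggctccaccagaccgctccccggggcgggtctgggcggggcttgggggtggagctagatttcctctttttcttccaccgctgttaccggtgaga

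The Bnip3 window (chr7:138909507-138909756 on the minus strand) held 5 matches, which begin 117, 108, 107, 99 and 35 bases before the start, and 1.01% of all windows held 5 or more. The Adm window (chr7:110627407-110627656 on the plus strand) held CACGC, the reverse complement of GCGTG, at 90 and 54 bases before the start. The Egln3 window (chr12:54203875-54204124 on the minus strand) held 1 ACGTG at 229 bases, and the window of Vegfa (chr17:46032378-46032627 on the minus strand) held none, as did that of Vhl. The window of the other Vegfa start site (chr17:46025164-46025413 on the minus strand) held GCGTG at 218 and CACGT at 211 bases. That window lies downstream of the outer start, so its matches, though counted above, are not upstream of the outer start. Of the regulators, Hif1a held 3 matches, Egln1 held 2 and Arnt held 1. A match is a run of letters and not a measured binding site.

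In the following, a level is the processed signal on the log2 scale after subtraction of the 75th percentile of its array (centred log2 signal), a difference is the first-named group minus the second on that scale, and adjusted p-values are from limma with Benjamini-Hochberg adjustment over all tested probes, with a threshold of 0.05. Levels of different probes are not compared.

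In STAM-NON against Normal, the question was whether the untreated disease model differs in these transcripts, and 0 of the 17 probes passed the limma test, against 16.1% of all tested probes. At an unadjusted p under 0.05, 4 of the 17 probes passed (35.8% of all probes), 2 higher and 2 lower. For 6 of the 17 the groups did not overlap (41.2% of all probes). The median difference was -0.17, with -0.13 over all tested probes, and the lowest adjusted p was 0.0536. The methods' t-test gave 0 probes after adjustment (0.114% of all probes) and 2 without it (28.7% of all probes). As this is bulk tissue, fewer cells of a type and less RNA per cell cannot be told apart in any of these values.

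In STAM-INS against STAM-NON, which addresses the effect of insulin in the model, 0 of the 17 probes passed with limma, where 0.0913% of all probes did. At an unadjusted p under 0.05, 2 probes passed (8.78% of all probes), Ndrg1 higher and Bnip3 probe A_55_P2091473 lower, and for these 2 the groups did not overlap (12.2% of all probes). The methods' t-test gave 0 after adjustment (0.00381% of all probes) and 1 without it (5.70% of all probes). In STAM-INS against Normal, 2 of the 17 passed (13.9% of all probes), both of Bnip3 and both lower (8.73% of all probes passed lower). Of all probes that passed there, 37.2% were higher, and 27.5% to 61.7% under the other background corrections and scalings. At an unadjusted p under 0.05, 5 of the 17 passed (32.5% of all probes), and for 7 the groups did not overlap (44.0% of all probes).

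**Figure D1:**
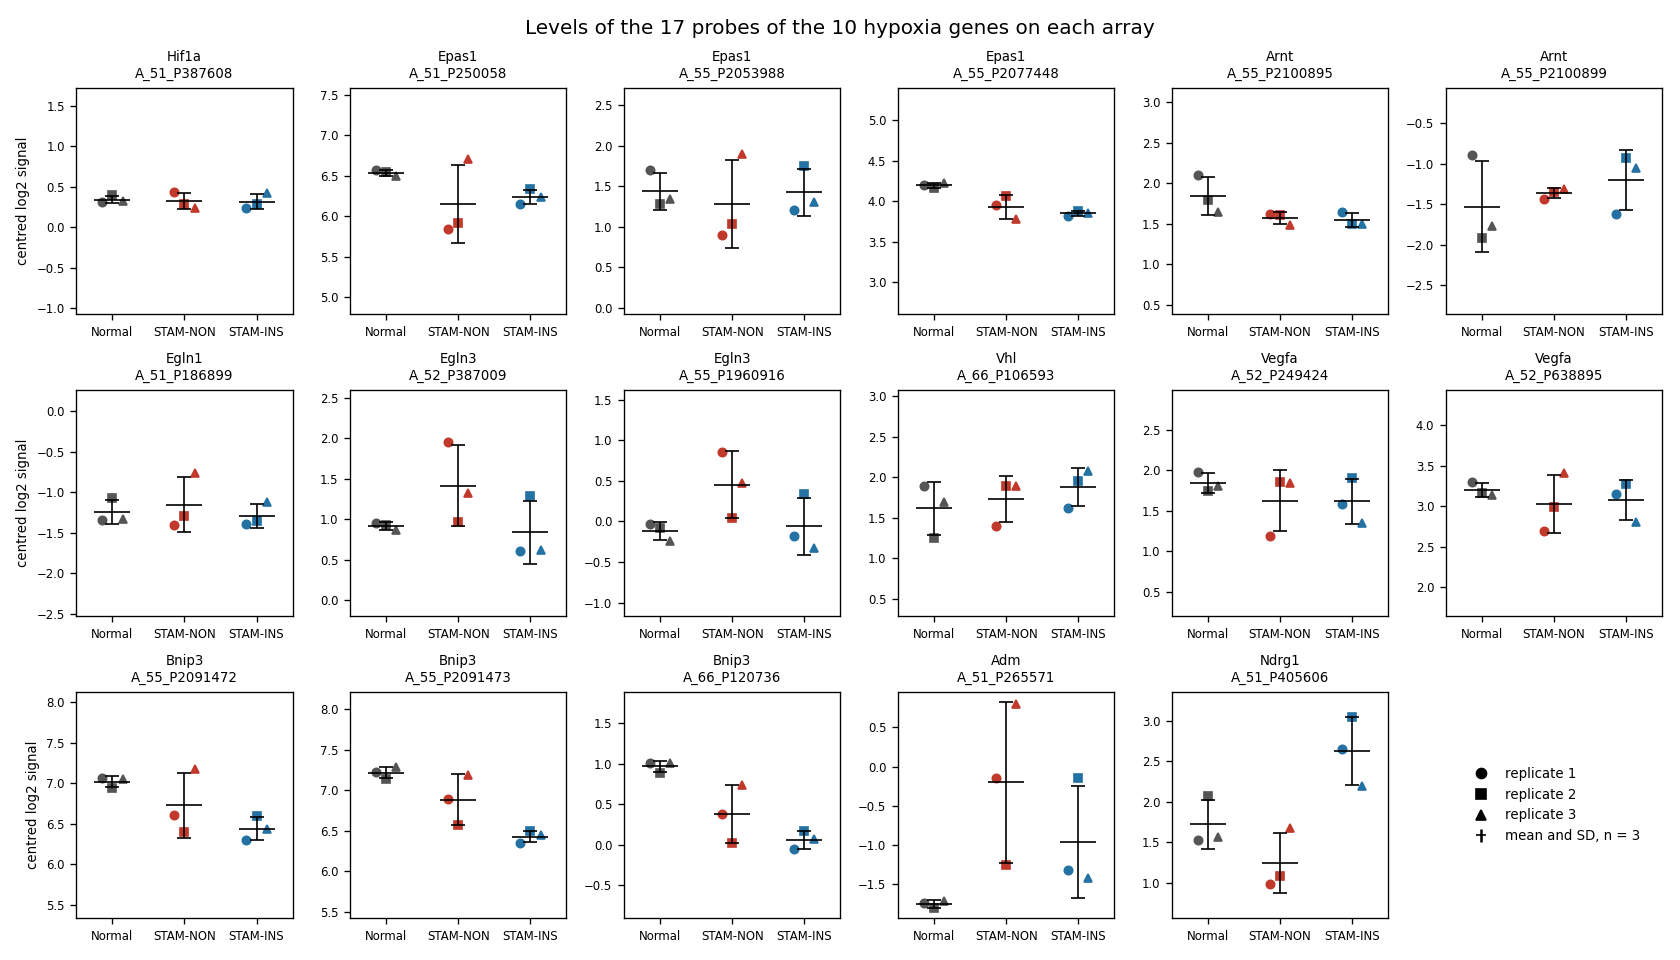
Centred log2 signal (y axis) of each of the 17 probes on each array, with 1 panel per probe; points are single arrays, shaped by replicate number, and bars give the mean and SD of 3 arrays. Hif1a sits at the same level in the 3 groups, Bnip3 is lowest in STAM-INS, Ndrg1 is highest in STAM-INS, and Adm lies near -1.75 on the Normal arrays and is spread between -1.42 and 0.80 on the STAM arrays.

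Among the factor subunits, Hif1a, the alpha subunit found in most cells, had levels of 0.43, 0.29 and 0.24 on the STAM-NON arrays, 0.24, 0.29 and 0.42 on the STAM-INS arrays and 0.31, 0.40 and 0.32 on the Normal arrays. The 3 groups overlapped fully. The difference was -0.02 for STAM-NON against Normal (95% interval -0.26 to 0.22), -0.01 for STAM-INS against STAM-NON (-0.25 to 0.23) and -0.03 for STAM-INS against Normal (-0.27 to 0.21). These intervals leave out a change of the transcript by 1 log2 unit in either direction.

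Epas1, which encodes HIF-2 alpha and is abundant in endothelium and hepatocytes, had 3 probes that did not move together. On probe A_55_P2077448 the levels were 3.95, 4.07 and 3.78 in STAM-NON, 3.82, 3.88 and 3.85 in STAM-INS and 4.20, 4.17 and 4.23 in Normal, so every STAM array lay below every Normal array. The differences of -0.27 and -0.35 from Normal did not pass (limma adjusted p 0.112 and 0.0624). On the other probes STAM-NON replicate 3 was the highest array of all 9, at 6.70 and 1.90, while on A_55_P2077448 it was the lowest, and their differences from Normal lay between -0.39 and -0.02. Over 21 alternatives the first of them, A_51_P250058, differed by -0.66 to -0.12 in STAM-NON against Normal (limma adjusted p 0.0263 to 0.786) and passed in 1, without that array.

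Arnt, the shared partner, differed by -0.27 in STAM-NON and by -0.30 in STAM-INS from Normal on probe A_55_P2100895, and by 0.16 and 0.32 on probe A_55_P2100899, so its probes disagreed in sign. None of these passed, with limma adjusted p from 0.168 to 0.703. The second probe was spread between -1.92 and -0.89 within the Normal group itself.

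Of the oxygen sensors, Egln3, the prolyl hydroxylase that is itself induced by HIF, had levels of 1.95, 0.97 and 1.32 in STAM-NON, 0.61, 1.29 and 0.62 in STAM-INS and 0.95, 0.93 and 0.86 in Normal on probe A_52_P387009. Every STAM-NON array lay above every Normal array, replicate 2 by little, and STAM-INS overlapped both other groups, with replicate 2 high. The second probe had levels of 0.86, 0.04 and 0.47 in STAM-NON, -0.18, 0.34 and -0.33 in STAM-INS and -0.03, -0.08 and -0.24 in Normal, with the arrays in a similar order. STAM-NON differed from Normal by 0.50 and 0.58 (SE 0.27 and 0.24, limma adjusted p 0.210 and 0.121), and STAM-INS from STAM-NON by -0.58 and -0.51 (both limma adjusted p 0.581). STAM-INS and Normal lay within -0.08 and 0.06 of each other. Over 21 alternatives the second probe differed by 0.37 to 0.85 between STAM-NON and Normal (limma adjusted p 0.0420 to 0.449) and passed in 1, without STAM-NON replicate 2, and the first by 0.23 to 0.85, passing in 0.

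Egln1, the main prolyl hydroxylase in normal oxygen, differed by 0.09, -0.13 and -0.04 in STAM-NON against Normal, STAM-INS against STAM-NON and STAM-INS against Normal. Vhl, which recognises the hydroxylated subunit, differed by 0.11, 0.16 and 0.27. The groups overlapped for both genes in all 3 comparisons, and all limma adjusted p were 0.422 or above. The 95% interval for Vhl in STAM-INS against Normal ran from -0.23 to 0.77.

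Of the targets, Vegfa, the main growth factor of vessels, overlapped between the groups on both of its probes. Its levels on probe A_52_P638895 were 2.70, 2.99 and 3.41 in STAM-NON, 3.15, 3.28 and 2.81 in STAM-INS and 3.30, 3.17 and 3.14 in Normal. The STAM arrays were spread around a narrow Normal group. Differences over both probes lay between -0.23 and 0.04, and no interval reached beyond -0.72 or 0.49.

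Bnip3, a protein of the outer mitochondrial membrane that marks mitochondria for removal, was lower in STAM-INS than in Normal. On probe A_66_P120736 the levels were 0.38, 0.03 and 0.74 in STAM-NON, -0.05, 0.17 and 0.07 in STAM-INS and 1.01, 0.89 and 1.01 in Normal. All Normal arrays were above all STAM arrays, STAM-INS was lowest, and STAM-NON lay between with a wide spread. On probe A_55_P2091473 the levels were 6.89, 6.57 and 7.19 in STAM-NON, 6.35, 6.49 and 6.44 in STAM-INS and 7.22, 7.14 and 7.28 in Normal. Here the 3 STAM-INS arrays lay below all others, and STAM-NON replicate 3 reached the Normal range.

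STAM-INS fell by 0.91 (SE 0.18, 1.87-fold lower, limma adjusted p 0.0163) and by 0.78 (SE 0.16, 1.72-fold lower, limma adjusted p 0.0183) from Normal on these 2 probes. The third probe, A_55_P2091472, differed by -0.58 (95% interval -1.02 to -0.14) without passing (limma adjusted p 0.0792). STAM-NON differed from Normal by -0.59, -0.33 and -0.29 on the same probes in that order (limma adjusted p 0.0536, 0.174 and 0.306), and STAM-INS from STAM-NON by -0.32, -0.46 and -0.29 (limma adjusted p 0.639, 0.494 and 0.710). The levels of all 3 probes thus ran from Normal over STAM-NON to STAM-INS in their means, with neighbours in this order not separated by the test. No Bnip3 probe passed between STAM-INS and Normal without Normal replicate 1 or without Normal replicate 3 (lowest limma adjusted p 0.0546 and 0.0609), nor with arrays centred on the E1A spike-in controls (0.0612) or with dim probes kept in the test (0.0888).

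The 3 genes whose values relative to their Normal mean came closest to Bnip3 probe A_66_P120736 over the 9 arrays, of 13386 genes compared, were Ccnt2, Fnip2 and Fubp3, with root mean square differences of 0.14, 0.16 and 0.17 on the log2 scale. Fubp3 was at 0.51, 0.71 and 0.94 in STAM-NON, 0.51, 0.52 and 0.54 in STAM-INS and 1.30, 1.33 and 1.32 in Normal. It shows the order of Bnip3 with less spread. Ccnt2 was dim, and each STAM group had it above background on 2 of 3 arrays.

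**Figure D2:**
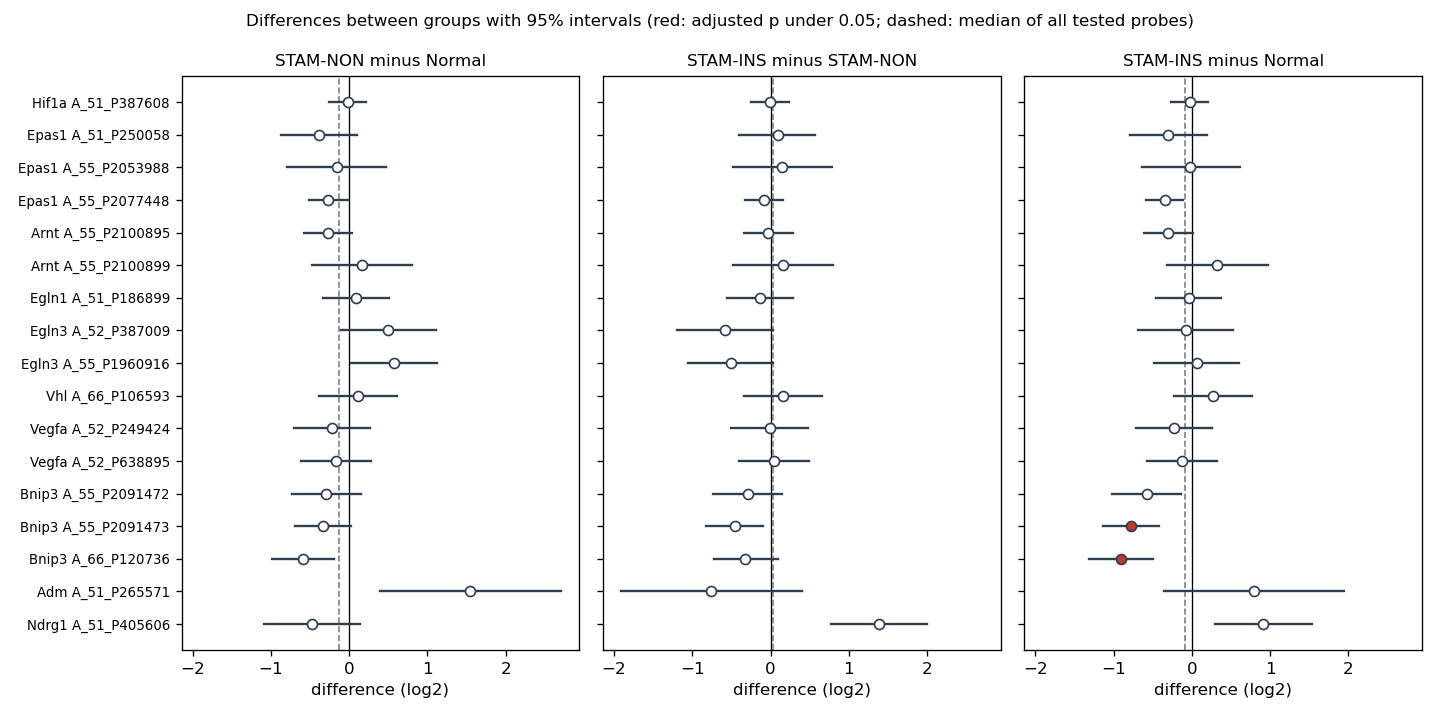
Difference between group means on the log2 scale (x axis) for each of the 17 probes in the 3 comparisons, with 95% intervals from limma; red points passed the threshold and the dashed line is the median of all tested probes. The 2 red points are the Bnip3 probes at -0.78 and -0.91 in STAM-INS against Normal, and the Ndrg1 interval in STAM-INS against STAM-NON runs from 0.77 to 2.0.

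Ndrg1, a stress-induced gene linked to growth arrest, had levels of 0.98, 1.08 and 1.67 in STAM-NON, 2.65, 3.04 and 2.20 in STAM-INS and 1.53, 2.07 and 1.56 in Normal. All 3 STAM-INS arrays lay above all other arrays, and STAM-NON and Normal overlapped. STAM-INS was above STAM-NON by 1.39 (SE 0.27, 2.61-fold, 95% interval 0.77 to 2.0), with an unadjusted limma p of 0.000767 and an adjusted p of 0.236, which did not pass. It differed by 0.91 from Normal (limma adjusted p 0.0580), while STAM-NON differed by -0.48 from Normal (limma adjusted p 0.234). Over the alternatives the difference between STAM-INS and STAM-NON stayed between 1.18 and 1.60, and the adjusted p between 0.0952 and 0.911. Ndrg1 has 1 probe on the array.

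Adm encodes adrenomedullin, a peptide that widens vessels and is made chiefly by endothelium. Its levels were -0.15, -1.25 and 0.80 in STAM-NON, -1.31, -0.14 and -1.42 in STAM-INS and -1.74, -1.80 and -1.71 in Normal. All 6 STAM arrays lay above the 3 Normal arrays, STAM-NON replicates 1 and 3 and STAM-INS replicate 2 stood well above the others, and the 2 STAM groups overlapped. The SDs of the STAM-NON, STAM-INS and Normal arrays were 1.02, 0.71 and 0.05. STAM-NON differed from Normal by 1.55 (SE 0.51, 2.93-fold, limma adjusted p 0.0683), STAM-INS from Normal by 0.79 (limma adjusted p 0.306) and STAM-INS from STAM-NON by -0.76 (limma adjusted p 0.710), and none passed. Over 21 alternatives the first of these lay between 1.05 and 2.08 (limma adjusted p 0.0159 to 0.341), and it passed in 1, without STAM-NON replicate 2.

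The same 3 arrays were also the highest on both Egln3 probes. Of the 17 probes, these 3 (Adm and 2 of Egln3) had STAM-NON replicates 1 and 3 and STAM-INS replicate 2 as their highest arrays, as had 4.17% of all tested probes. These arrays were picked from the values of Adm, so Adm counts by choice, and the other 2 probes are of 1 gene. The share is therefore no test of these probes. Over the 17 probes the STAM-NON, STAM-INS and Normal groups had median SDs of 0.36, 0.24 and 0.08, beside 0.23, 0.18 and 0.16 over all tested probes.

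The 3 genes with values closest to Adm relative to their Normal mean were Nid1, a basement membrane protein, Itgb3, an integrin of platelets and vessels, and Vwf, the clotting factor of endothelium, with root mean square differences of 0.20, 0.24 and 0.25. Nid1 was at 2.47, 1.15 and 3.11 in STAM-NON, 1.67, 2.32 and 1.33 in STAM-INS and 0.82, 0.94 and 0.79 in Normal. Its highest arrays were those of Adm. Nid1, Itgb3 and Vwf differed by 1.39, 1.26 and 1.45 between STAM-NON and Normal, and none passed (limma adjusted p 0.0693, 0.116 and 0.0803).

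Lists of markers of cells that a liver sample can hold were read beside Adm. The mean of the 10 endothelial markers, Vwf among them, was 1.53, 1.03 and 1.94 in STAM-NON, 0.60, 1.58 and 1.27 in STAM-INS and 0.96, 0.98 and 1.05 in Normal. The arrays with the highest Adm were also the highest here. All 10 markers were detected on every array, 1 was higher in STAM-NON than in Normal and none was lower. The median difference of the list from Normal was 0.31 in STAM-NON and -0.03 in STAM-INS. Its markers did not all move the same way. Kdr, on this list, differed from Normal by -0.28 in STAM-NON and -0.36 in STAM-INS without overlap, and neither passed. Vwf differed by 1.45 and 0.83, and neither passed. Vwf entered this mean although it was also picked as close to Adm. The mean of the 10 measured macrophage and Kupffer cell markers was 2.38, 1.30 and 2.12 in STAM-NON, 1.31, 1.99 and 1.37 in STAM-INS and 0.13 to 0.49 in Normal, with 4 of the 10 higher in STAM-NON and 2 in STAM-INS than in Normal. Gpnmb, on this list, was well above background on 3 STAM-NON, 1 STAM-INS and 0 Normal arrays. It entered the test and this mean only through STAM-NON. The stellate cell mean was 0.28, -0.35 and 0.27 in STAM-NON, -0.08, -0.66 and -0.40 in STAM-INS and -0.72 to -0.38 in Normal. STAM-INS replicate 2, with high Adm, was thus the lowest STAM array on that list. The erythroid mean was 2.49, 4.30 and 5.84 in STAM-NON, 3.21, 5.88 and 5.08 in STAM-INS and 3.32 to 3.55 in Normal. Of the 3 arrays with the highest Adm it was the highest of all on STAM-INS replicate 2, next on STAM-NON replicate 3 and the lowest of all on STAM-NON replicate 1. The part of these cells in the Adm, Egln3 and pathway values was not tested. The hepatocyte mean was lower on the STAM arrays, at 7.86 to 8.16 in STAM-NON, 7.92 to 8.14 in STAM-INS and 8.33 to 8.41 in Normal, with 1 of its 10 markers lower in STAM-NON and 2 lower in STAM-INS than in Normal. Of the biliary list, 3 of 6 measured markers were higher in STAM-NON and 1 in STAM-INS than in Normal, and of the pancreas list 1 of 3 was higher in both. The biliary marker Krt7 was well above background on 1 of 3 Normal arrays and entered the test only through the STAM arrays. None of the 5 lymphocyte, 4 erythroid, 2 adipose or 10 stellate markers passed in any comparison.

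**Figure D3:**
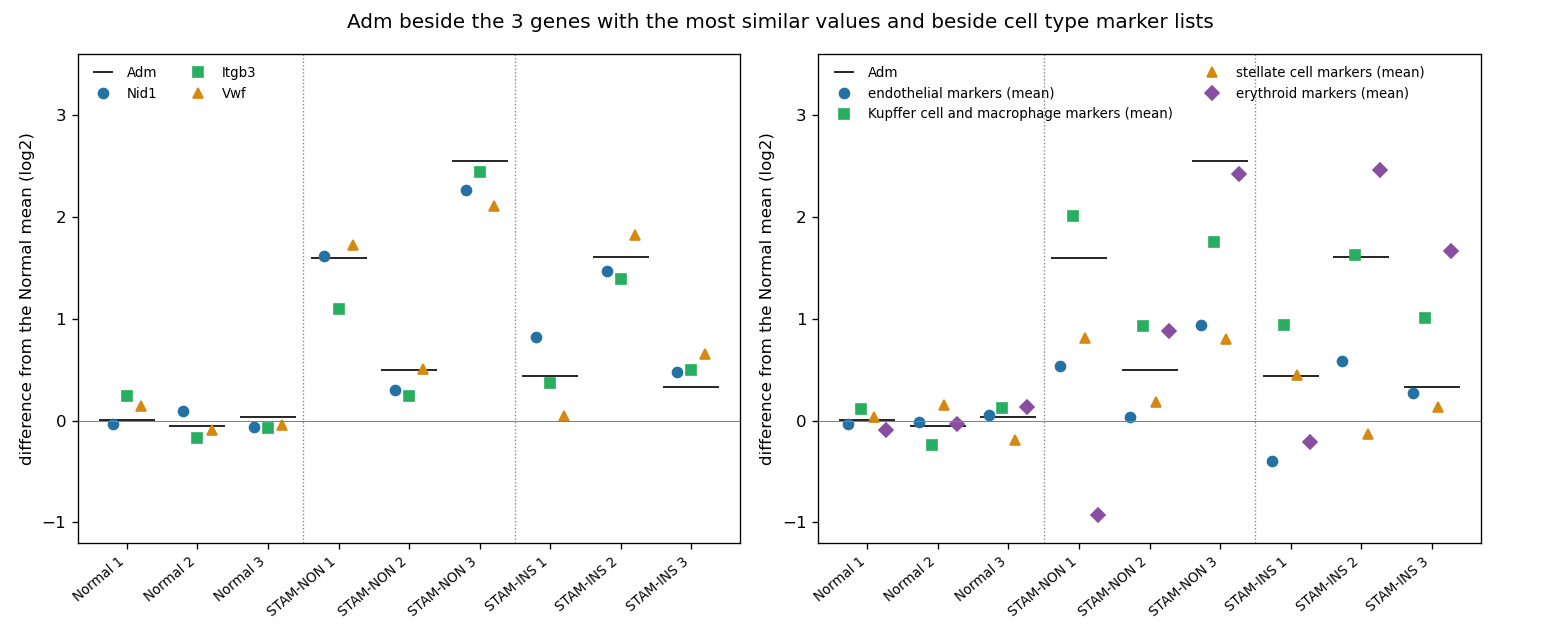
Level of Adm on each array as the difference from its Normal mean on the log2 scale (y axis; black bars), on the left beside Nid1, Itgb3 and Vwf and on the right beside the means of 4 lists of cell type markers (colored symbols). STAM-NON replicates 1 and 3 and STAM-INS replicate 2 are the highest arrays for Adm, Nid1 and the endothelial and macrophage means, and the erythroid and stellate cell means have other orders.

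The rest of the pathway was read from lists of 91 further genes, each on the array, of which 78 had a tested probe (1 probe per gene, that with the highest mean). In STAM-NON against Normal 8 of the 78 were higher and none lower, where 7.87% of all genes were higher and 8.93% lower. The median difference was 0.19, and -0.11 over all genes. The balance over the array turned with the scaling: of all probes that passed, 39.2% were higher here, against 27.9% with normexp, 34.6% with median centring, 51.9% with quantile normalisation, 68.8% with the percentile over probes detected on all arrays and 81.9% with E1A centring. Under these 5 settings 6 to 12 pathway genes were higher, and none lower except 2 with normexp. In STAM-INS against STAM-NON 0 of the 78 passed with limma, with 0.0224% of all genes higher and 0.0598% lower, and 6 passed at an unadjusted p under 0.05 (9.32% of all genes). The methods' t-test gave 0 after adjustment, as over all genes (0%), and 3 without it (5.91% of all genes). In STAM-INS against Normal 4 were higher and 2 lower, where 6.15% of all genes were higher and 7.49% lower. The count for STAM-NON against Normal fell to 0 without STAM-NON replicate 1 and without Normal replicate 3, to 1 without STAM-NON replicate 3 or Normal replicate 2, and to 3 without Normal replicate 1, and it rose to 16 without STAM-NON replicate 2. That for STAM-INS against Normal fell to 0 without Normal replicate 3 and to 2 without STAM-INS replicate 1, STAM-INS replicate 2, Normal replicate 1 or Normal replicate 2, and it rose to 10 without STAM-NON replicate 2. These counts with an array left out have no share of all genes beside them, so they do not set the pathway genes apart. With slide row as a block, chosen after seeing the data, the counts were 0 and 2, and with dim probes kept in the test both were 0. Only STAM-INS lay in both rows, so the row block cannot decide whether the STAM-NON count depends on the row.

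Among the regulators, none of the 2 other oxygen sensors, the 4 other subunits of the VHL ligase or the 9 cofactors passed in any comparison with limma, while 2, 0 and 3 of them passed at an unadjusted p under 0.05 in STAM-NON against Normal, where 36.2% of all genes did. Egln2, the third prolyl hydroxylase, was at 5.40, 5.63 and 5.53 in STAM-NON, 5.58, 5.50 and 5.76 in STAM-INS and 5.92, 5.83 and 5.96 in Normal, and Hif1an, which blocks cofactor binding by HIF, had -1.18, -1.14 and -1.01 in STAM-NON and -0.82, -0.90 and -0.78 in Normal. Both had every STAM-NON array below every Normal array, with differences of -0.38 and -0.28 (limma adjusted p 0.0561 and 0.123). Of the ligase, Eloc and Rbx1 differed by -0.29 and -0.24. Among the cofactors, the coactivator Crebbp differed by 1.02 and the deubiquitinase Usp20 by 0.73 (limma adjusted p 0.0920 and 0.114).

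Most of the targets that passed belonged to glycolysis and glucose uptake, a group the study itself drew from these arrays, so that their direction is not independent evidence. Of 20 measured genes, 6 rose in STAM-NON and 4 in STAM-INS against Normal, with none lower, beside 7.87% and 6.15% of all genes higher and 8.93% and 7.49% lower, and 0 passed between the STAM groups (limma; 1 at an unadjusted p under 0.05). Under the 5 other background corrections and scalings STAM-NON had 5 to 10 of the 20 genes higher than Normal (5.12% to 9.97% of all genes) and STAM-INS had 3 to 6 (3.58% to 7.88% of all genes), with none lower in either. With the replicate number as a block, 2 and 1 were higher (4.68% and 3.65% of all genes). Hk2, the hexokinase of muscle and growing cells, was at -1.83, -2.70 and -0.83 in STAM-NON, -1.59, -1.47 and -2.01 in STAM-INS and -3.83, -3.27 and -3.86 in Normal, where 2 of 3 arrays measured it. Its probe thus entered the test only through the STAM arrays. All STAM arrays lay above all Normal arrays, by 1.87 in STAM-NON and 1.96 in STAM-INS (limma adjusted p 0.0265 and 0.0224). With normexp background correction these differences were 0.74 and 0.70 and both passed.

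Pfkfb4, which sets the activator of phosphofructokinase, was at -0.87, -1.23 and -0.67 in STAM-NON, -0.68, -0.65 and -1.52 in STAM-INS and -2.02, -2.92 and -2.22 in Normal. The STAM groups overlapped and lay above Normal by 1.46 and 1.44 (limma adjusted p 0.0216 and 0.0220). Slc16a3, the lactate exporter, was higher by 2.75 and 2.28, and Pfkp, the platelet phosphofructokinase, by 1.64 and 1.79, although a second Pfkp probe near background differed by -0.47 and -0.41 and did not pass. Pkm, the pyruvate kinase of non-liver type, and Gys1, a glycogen synthase, rose in STAM-NON, by 1.98 and 0.91, and their differences of 1.50 and 0.71 in STAM-INS did not pass (limma adjusted p 0.0502 and 0.0761). With normexp the differences of Pfkfb4 were 0.78 and 0.73, those of Pfkp 0.88 and 0.93 and those of Slc16a3 1.87 and 1.44, of which the last did not pass, and that of Gys1 in STAM-NON was 0.51. In STAM-INS against STAM-NON these 6 genes differed by -0.48 to 0.15.

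**Figure D4:**
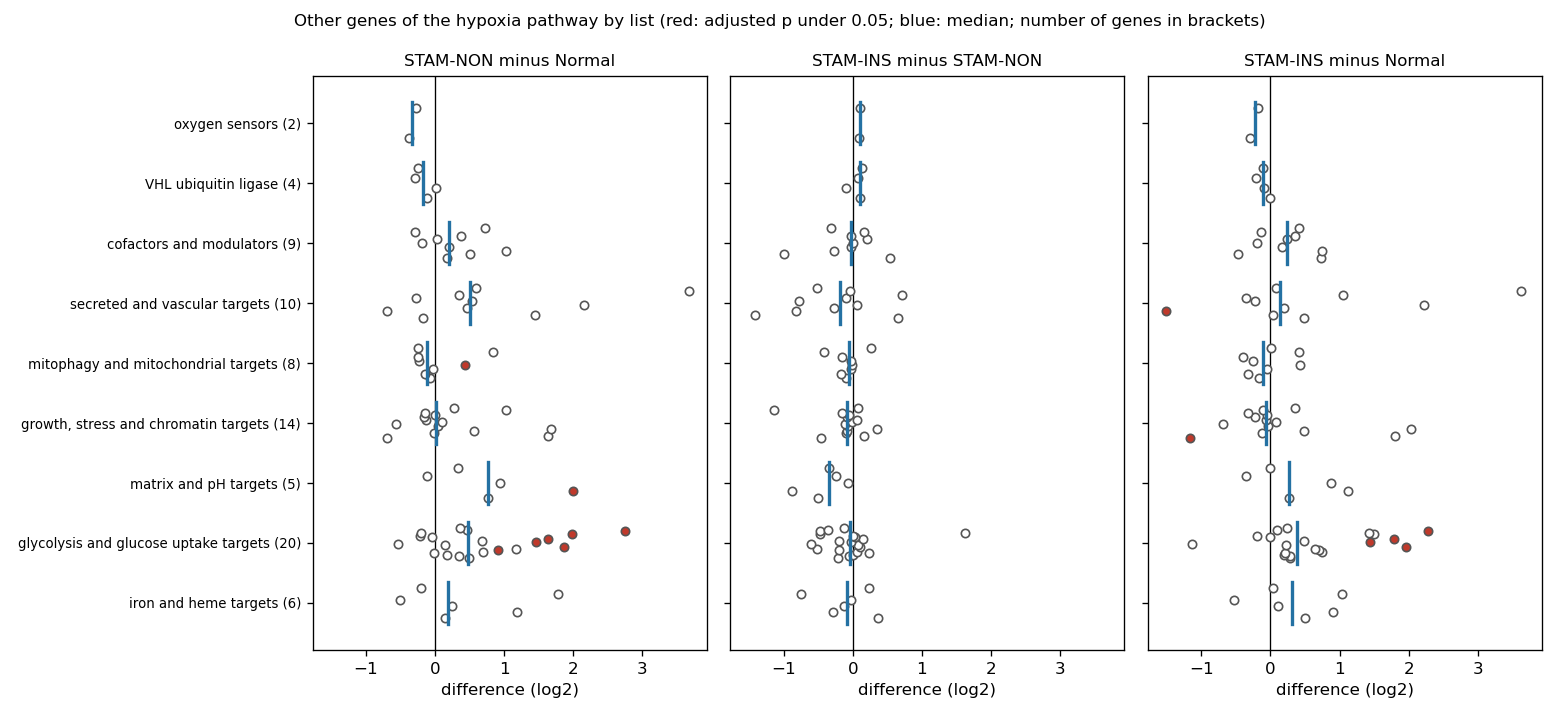
Difference between group means on the log2 scale (x axis) for the 78 measured genes of the pathway lists in the 3 comparisons; each point is a gene, red points passed the threshold, and blue bars are list medians. Red points lie on the high side in STAM-NON against Normal, on both sides in STAM-INS against Normal, and there are none in STAM-INS against STAM-NON.

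Outside glycolysis, Loxl2, which crosslinks collagen, was at 1.69, 0.06 and 1.63 in STAM-NON, -0.20, 1.08 and -0.14 in STAM-INS and -0.68, -0.95 and -1.0 in Normal. Its rise in STAM-NON was 2.0 (limma adjusted p 0.0299), and another probe at 0.81 did not pass. A further probe was also higher (limma adjusted p 0.0231), but it was well above background on only 1 of 3 Normal arrays and entered the test only through the STAM arrays. Fundc1, a second receptor for the removal of mitochondria beside Bnip3, was at 1.02, 0.71 and 0.86 in STAM-NON, 0.76, 0.96 and 0.84 in STAM-INS and 0.46, 0.54 and 0.26 in Normal. It rose by 0.44 in STAM-NON (limma adjusted p 0.0486) and had a difference of 0.43 in STAM-INS that did not pass (0.0562). Over 21 alternatives the difference in STAM-NON passed in 7.

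Angptl4, an inhibitor of lipoprotein lipase, had levels of 7.10, 6.87 and 6.26 in STAM-NON, 5.32, 6.49 and 5.96 in STAM-INS and 7.39, 7.36 and 7.54 in Normal. It fell by 1.51 in STAM-INS against Normal (SE 0.31, 2.84-fold lower, limma adjusted p 0.0190). Ak4, a mitochondrial adenylate kinase, fell by 1.17 in the same comparison (limma adjusted p 0.0167), with a second probe at -0.40 that did not pass (0.149). Their differences between STAM-INS and STAM-NON, -0.82 and -0.46, did not pass (limma adjusted p 0.522 and 0.603). As with Bnip3, the mean of STAM-NON lay between those of Normal and STAM-INS for both genes. Angptl4 and Ak4 were named because they passed between STAM-INS and Normal, as Bnip3 did, so the ends of this order followed from the choice. The share of all probes with this order was not counted.

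Among the iron genes none passed by its brightest probe. Tfrc, the transferrin receptor, differed by 1.78 in STAM-NON against Normal on that probe (limma adjusted p 0.108), while its other probes passed: A_65_P06446 was higher by 2.33 (0.0363), and A_51_P167876, which no Normal array measured well above background, was at least 2.33-fold higher (0.0297). As A_51_P167876 entered the test only through the STAM arrays, its call adds no support. Hmox1, the heme-degrading enzyme, differed by 1.19 (limma adjusted p 0.0695), with a second probe at 0.02.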

How the data were processed

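Liver RNA of 9 mice (3 STAM-NON, 3 STAM-INS, 3 Normal) was measured on 1-colour Agilent arrays with 1 array per mouse, and the labels gave group and replicate number. The authors deposited scanner output of Agilent Feature Extraction 11.5.1.1, which holds, per the file headers, the background-subtracted intensity of each spot, not normalised between arrays. The design was built on mm9. The files hold no gene names, and probes were named through RefSeq accessions (assembly GRCm38.p6, names and promoter windows), which matched 27656 of 55681 probes. Control and outlier-flagged spots were left out, spots of a probe were averaged, and 12 probes without an unflagged spot on some array were dropped.

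Signals were taken to the log2 scale and centred on the 75th percentile of each array. A probe entered the test if a share of 0.5 or more of its spots passed the scanner's call of well above background on each of the 3 arrays of a group (26277 probes). limma 3.58.1 in R 4.3.3 (lmFit, eBayes, two-sided) was fitted to all 9 arrays with Benjamini-Hochberg adjustment and a threshold of 0.05. Named were the 10 genes, each listed pathway gene past the threshold in any comparison (at most 6 per list, or the 2 with the largest difference in STAM-NON against Normal where none passed), and the 3 genes closest to each of the 2 members with the largest difference in that comparison. The members and lists were chosen with earlier results of these data known. The methods name no test for the arrays. Their unpaired t-test for other data was run as an alternative, as were other background corrections (normexp on the median signal, since no mean signal is in the files, with offset 50), scalings, filters, fits and left-out arrays. Tested on simulated data for STAM-NON against Normal, the same fit recovered 82.0% of 200 probes of 26277 changed by 2 on the log2 scale. Of the probes it called there, 7.34% were false. The largest member difference in that comparison was 1.55, so the run does not give the recovery of changes of the size seen here. No source ties replicate numbers across groups. One listed pathway gene is not reported here by name.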

Additional observations from a re-analysis of the deposited data

Results flagged for a closer look

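Of the listed genes without a tested probe, 5 had signal well above background on at least 2 of the 6 STAM arrays and on none of the 3 Normal arrays, a signal outside the tested probes. These were Slc2a3, a neuronal-type glucose transporter (4 STAM arrays), Apln, a vessel peptide (3), Edn1, which encodes endothelin-1 (3), Plod2, a collagen lysyl hydroxylase (3), and Epo, which encodes erythropoietin (2). STAM-NON replicates 1 and 3 were among the arrays for each of the 5 genes, with STAM-INS replicate 2 for Apln and Slc2a3 and STAM-INS replicate 1 for Edn1, Plod2 and Slc2a3. STAM-NON replicates 1 and 3 and STAM-INS replicate 1 had 59.3%, 63.1% and 65.0% of all spots well above background, against 46.2% to 51.1% on the other 6 arrays. The same pattern was seen for 5 of 18 untested probes of the pathway lists (27.8%) and for 5846 of all 29404 untested probes (19.9%). The part of that difference between arrays in these detections was not tested.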

How the results depend on the processing

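Over the 17 probes and 3 comparisons, no difference that passed reversed, and 23 of the 51 differences, none above 0.27 in size, changed sign under some of 21 alternatives without passing. The Bnip3 calls between STAM-INS and Normal held under 12 (A_55_P2091473) and 17 (A_66_P120736) of the 21, and Ndrg1 in STAM-INS against STAM-NON passed under 0. The member count in STAM-NON against Normal (0) was 1 with normexp (17.9% of all probes), with arrays centred on the median (11.9% of all probes), with only probes detected on all 9 arrays and with trend and robust eBayes. In STAM-INS against Normal (2) it was 1 with the percentile over probes detected on all arrays (11.3% of all probes) and with quantile normalisation (11.7%). It was 0 with E1A spike-in centring (7.49%) and with no filter on dim probes. It was 4 with trend and robust eBayes, with only the 2 groups compared and with the methods' t-test after adjustment (2828 of all 26277 probes). The unadjusted t-test gave 2, 1 and 6 in STAM-NON against Normal, STAM-INS against STAM-NON and STAM-INS against Normal, where 7534, 1498 and 8810 of all 26277 probes passed. Leaving out 1 array gave 0 to 2, 0 to 0 and 0 to 5 in the same order. The pathway count in STAM-NON against Normal (8) was 13 with normexp (7.02% of all genes higher and 12.2% lower) and 0 with no filter on dim probes or the adjusted t-test. In STAM-INS against Normal (6) it was 11 with normexp (5.74% of all genes higher and 9.47% lower), 0 with no filter, 10 with trend and robust eBayes and 13 with only the 2 groups compared. The unadjusted t-test gave 19, 3 and 19 of the 78 pathway genes in the 3 comparisons, to be read beside the counts over all probes given above for that test. Leaving out 1 array gave 0 to 16, 0 to 0 and 0 to 10. Where no share of all probes or genes stands beside a count, the count does not set these genes apart from the rest of the array. The cause of these changes was not tested. The median of all tested probes in STAM-NON against Normal moved by 0.27 with E1A centring and by -0.15 with the median. The deviations of samples with the same replicate number had r from -0.10 to 0.05 for STAM-NON and Normal, -0.29 to 0.15 for STAM-INS and STAM-NON, and -0.07 to 0.03 for STAM-INS and Normal. A pair with different numbers, STAM-INS replicate 2 and STAM-NON replicate 3, reached 0.28. With 3 arrays per group these values cannot decide whether samples with the same number share more than the number. The replicate block left 0, 0 and 2 member probes and 2, 0 and 3 pathway genes. Under that block 4.68% of all genes were higher and 3.37% lower in STAM-NON against Normal. In STAM-INS against Normal 3.65% were higher and 3.52% lower. STAM-NON was in row 1 and Normal in row 2 of a slide. STAM-INS replicate 1 was in row 1 and its replicates 2 and 3 in row 2. Slide row as a block, chosen after seeing the data, gave 0 pathway genes in STAM-NON against Normal, and 1 member probe and 2 pathway genes in STAM-INS against Normal. The first fit links the rows only through the STAM-INS arrays, so its count cannot show an effect of row. The second gave the same Bnip3 differences as leaving out STAM-INS replicate 1.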
